A study of Rattus norvegicus with 3 samples.

Results

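The genes described here are 6 of the protein genes carried by the mitochondrial DNA of the rat: Co1, Co2 and Co3, Cytb, Atp6 and Atp8. They were chosen by Ensembl identifier, ENSRNOG00000034234 (Co1), ENSRNOG00000030371 (Co2), ENSRNOG00000030700 (Co3), ENSRNOG00000031766 (Cytb), ENSRNOG00000031979 (Atp6) and ENSRNOG00000033299 (Atp8). All 6 were found among the 26404 gene identifiers in the count tables, and the names are those under which they were chosen, since these tables list identifiers only. RNA of adult rat liver was sequenced in 3 libraries, and each library was made from the pooled RNA of 3 rats. The first was made from healthy, untreated rats. The second came from rats given 1 ml of saline before partial hepatectomy, the surgical removal of part of the liver. The third came from rats given etanercept at 9 mg/kg in 1 ml, 16 to 18 hours before the same operation, and both operated livers were taken 32 hours after it. Etanercept, a soluble TNF receptor joined to part of an antibody, is a drug that captures TNF, a signal of inflammation. The 3 libraries are called the healthy, saline and etanercept pools. None came from a sham operation, so regrowth and the other consequences of surgery cannot be told apart.

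Mitochondrial DNA is a small circle present in many copies per cell. It is copied into long RNAs that are cut, mostly at the transfer RNAs between the genes, into separate messenger RNAs. The proteins it encodes are core subunits of the respiratory chain, which pumps protons across the inner membrane, and of ATP synthase, which uses the returning protons to make ATP. Hepatocytes are rich in mitochondria, and the remaining subunits of the same complexes are encoded in the nucleus. Co1, Co2 and Co3 form the core of cytochrome c oxidase (complex IV), the enzyme that passes electrons to oxygen. Cytb is the heme-carrying membrane subunit of the cytochrome bc complex (complex III), which hands electrons to cytochrome c. Atp6 forms part of the proton path of ATP synthase (complex V), and Atp8 is a small membrane subunit beside it. The Atp8 and Atp6 reading frames overlap on 1 shared messenger RNA.

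Each group was 1 pool, so no spread between animals could be measured and no p-value is given. Differences below are differences between pools, and intervals are 95% intervals that cover counting error only. Levels are CPM, counts scaled to the library size corrected by the trimmed mean of M-values (TMM). A gene was called where its fold was at least 2 and its higher pool had at least 5 CPM. The healthy, saline and etanercept pools held 5993834, 2645152 and 3639886 reads assigned to genes. The etanercept pool stood apart in where its reads fell. Of its uniquely aligned reads, 77.4% lay in no gene, where the healthy pool had 19.9% and the saline pool 21.7%. Folds of this pool are therefore given relative to gene reads and also relative to uniquely aligned reads. In bulk tissue, fewer mitochondria-rich cells and less mitochondrial RNA per cell cannot be told apart.

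All 6 genes stood higher in the etanercept pool than in either other pool when set against gene reads. Together they held 39269 reads in the healthy, 15955 in the saline and 86236 in the etanercept pool. That was 0.655% of gene reads in the healthy pool (exact Clopper-Pearson interval 0.649 to 0.662) and 0.603% in the saline pool (0.594 to 0.613). In the etanercept pool it was 2.37% (2.35 to 2.38). As a share of uniquely aligned reads, the order was different and the gap small, at 0.520% in the healthy (0.515 to 0.525), 0.467% in the saline (0.460 to 0.475) and 0.494% in the etanercept pool (0.491 to 0.498). The etanercept pool thus had the largest share of the 6 genes among gene reads and the middle share among uniquely aligned reads.

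Of the complex IV genes, Co1 held most of the reads. It encodes the subunit in which oxygen is reduced. Its level was 5833 CPM in the healthy pool (31329 reads), 3942 CPM in the saline pool (12755 reads) and 15424 CPM in the etanercept pool (51215 reads). Co2, the subunit that takes electrons from cytochrome c, stood at 433 CPM in the healthy, 304 CPM in the saline and 1497 CPM in the etanercept pool. Co3, a core subunit without a metal centre, stood at 579, 337 and 2965 CPM in the healthy, saline and etanercept pools. In TMM-scaled CPM, the etanercept pool was highest and the saline pool lowest for each of these genes. As a share of uniquely aligned reads, Co1 was instead lowest in the etanercept pool, at 0.294%, with 0.415% in the healthy and 0.374% in the saline pool. As shares of gene reads, the healthy and saline intervals of Co2 overlapped. The counting intervals of the 3 TMM-scaled levels of each gene did not overlap. Such intervals are narrow at these read numbers, and how many of all genes met the same condition was not counted.

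The other complexes showed the same order of pools in TMM-scaled CPM. Cytb stood at 228 CPM in the healthy pool (1224 reads), 176 CPM in the saline pool (568 reads) and 3999 CPM in the etanercept pool (13277 reads). Atp6 stood at 215 CPM in the healthy, 155 CPM in the saline and 1671 CPM in the etanercept pool. Atp8 was the least counted member, with 124 reads (23.1 CPM) in the healthy, 55 reads (17.0 CPM) in the saline and 1380 reads (416 CPM) in the etanercept pool. The healthy and saline intervals of Atp8 overlapped, from 19.2 to 27.5 CPM and from 12.8 to 22.1 CPM. Levels are not compared between genes, because gene lengths were not used here and a longer gene gathers more reads.

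**Figure D1:**
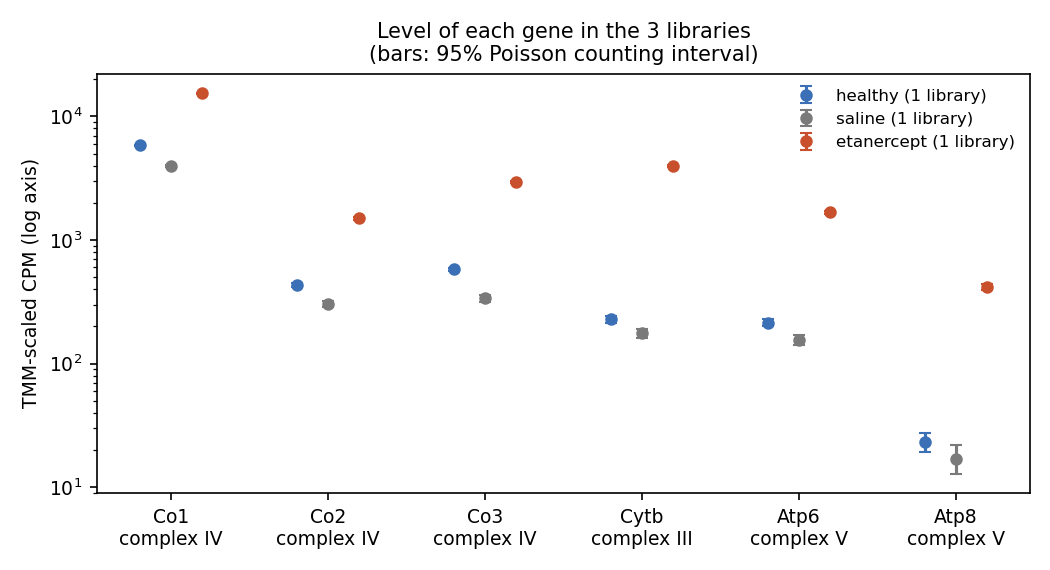
TMM-scaled CPM on a log axis for each of the 6 genes, with 1 point per pool and bars for the 95% Poisson counting interval. The etanercept point is the highest for every gene, and the healthy and saline points lie close together; for Atp8 their intervals overlap.

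Saline was set against healthy to describe the operated liver. None of the 6 genes was called in either direction, where 19.0% of the 9755 genes tested were called. All 6 stood lower in the saline pool by less than 2-fold, with a median log2 fold of -0.49, against -0.07 over all genes tested. Over the 103 genes that averaged at least 1000 CPM, which include Co1, Co3 and Cytb, the median was -0.63 (quartiles -1.23 and -0.19). The log2 folds of Co1 (-0.57), Co3 (-0.78) and Cytb (-0.38) lay between these quartiles. Co3 and Cytb reached the average of 1000 CPM only through the etanercept pool, and Co2, Atp6 and Atp8 did not reach it. The largest difference was that of Co3, 1.72-fold lower (interval 1.60 to 1.84), and at a threshold of 1.5-fold it alone would be called, where 21.5% of genes were called lower. Co1 was 1.48-fold lower (1.45 to 1.51) and Co2 1.43-fold lower (1.32 to 1.54). Atp6 was 1.38-fold lower (1.25 to 1.54) and Cytb 1.30-fold lower (1.17 to 1.44). Atp8 was 1.35-fold lower, with an interval from 1.02-fold higher to 1.90-fold lower that included no difference.

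The size of these differences depended on the scaling. Scaling by total gene reads moved every saline over healthy log2 fold by 0.45. The log2 folds were then -0.12 for Co1, -0.06 for Co2, -0.33 for Co3 and -0.02 for Atp6, and they turned positive for Cytb (0.07) and Atp8 (0.01). The direction of Cytb and Atp8 thus changed with the scaling.

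Etanercept was set against saline to describe the operated liver of rats given etanercept before surgery. All 6 genes were called higher in the etanercept pool, where 18.3% of the 9991 genes tested were called higher. Their median log2 fold was 3.28, against 0.00 over all genes tested. The treatment and the different make-up of this pool cannot be told apart, since each group is 1 pool. Summed over the 6 genes the level was 5.27-fold higher (interval 5.18 to 5.36). The summed value rests on Co1, which holds most of the reads, and without it the sum was 10.7-fold higher. Relative to uniquely aligned reads the sum was 1.06-fold higher (1.04 to 1.08).

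The members did not move by equal amounts. Among the complex IV genes, Co1 was 3.91-fold higher (interval 3.84 to 3.99), Co2 4.93-fold (4.60 to 5.28) and Co3 8.79-fold (8.26 to 9.37). Atp6 was 10.7-fold higher (9.81 to 11.8). Cytb was 22.8-fold higher (20.9 to 24.8), and Atp8 was 24.2-fold higher (18.7 to 32.6). The intervals of Cytb and Atp8 overlapped, and those of the other neighbours in this order did not. The largest fold was 6.19 times the smallest, and in saline against healthy 1.32 times. Of the 9991 genes tested, 2.60% were at least 8-fold higher in the etanercept pool, and 4 of the 6 members were among them. A larger fold than that of Cytb was found for 88 genes and a larger fold than that of Co1 for 651. Among the 103 genes that averaged at least 1000 CPM, these numbers were 8 and 20, and 29 of the 103 were called higher. That average includes the etanercept pool, and Co3 and Cytb reached it only through this pool. The set of 103 therefore favours genes high there.

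**Figure D2:**
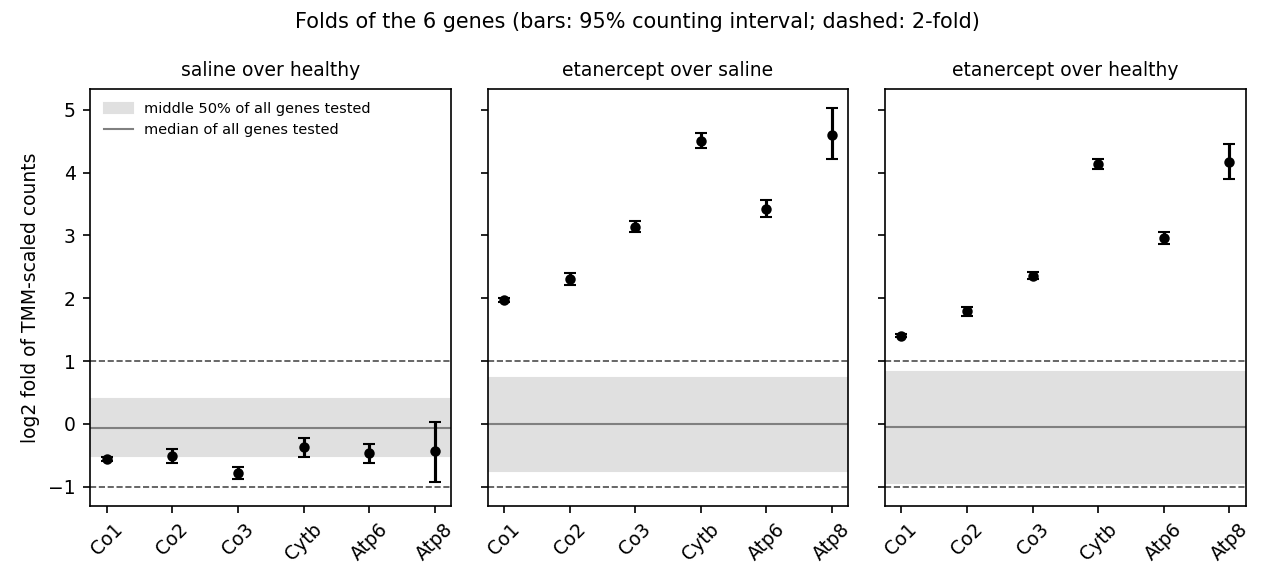
Log2 folds of TMM-scaled counts for the 6 genes in the 3 comparisons, with bars for the 95% counting interval, grey bands for the middle 50% of all genes tested and dashed lines at 2-fold. In saline over healthy the points lie between -0.78 and -0.38; in etanercept over saline they spread from 1.97 for Co1 to 4.60 for Atp8.

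The denominator decided how many of these genes were called. Relative to uniquely aligned reads, 3 of the 6 were at least 2-fold higher in the etanercept than in the saline pool, where 1.32% of the 9105 genes tested were. These were Atp8, 4.87-fold higher (interval 3.75 to 6.55), Cytb, 4.57-fold higher (4.21 to 4.99), and Atp6, 2.16-fold higher (1.97 to 2.37). The interval of Atp6 reached below the 2-fold threshold. Co3 was 1.77-fold higher (1.66 to 1.88) and missed it. Co1 was 1.27-fold lower (1.25 to 1.30). The interval of Co2, from 1.06-fold higher to 1.08-fold lower, included no difference. With this denominator 91.2% of all genes tested were called lower in etanercept than in saline, since most etanercept reads lay outside genes. Scaling by total gene reads left all 6 called higher, where 10.8% of genes were, with log2 folds from 1.54 for Co1 to 4.18 for Atp8. The source of the reads outside genes was not tested.

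**Figure D3:**
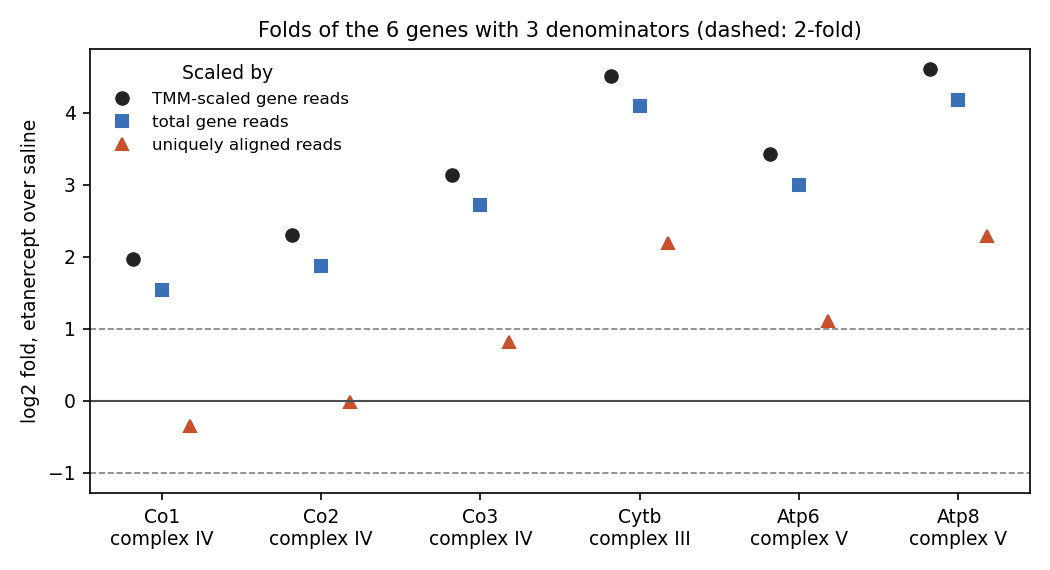
Log2 fold of etanercept over saline for the 6 genes with 3 denominators: TMM-scaled gene reads (circles), total gene reads (squares) and uniquely aligned reads (triangles), with dashed lines at 2-fold. The triangles run from -0.35 for Co1 to 2.28 for Atp8, and each denominator moves all 6 genes by the same amount.

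The etanercept pool was also set against the healthy pool, which shares the etanercept reads with the comparison above. All 6 genes were called higher, where 21.9% of the 10069 genes tested were. Co1 was 2.64-fold (interval 2.61 to 2.68), Co2 3.46-fold (3.29 to 3.63) and Co3 5.12-fold (4.92 to 5.33) above healthy. Atp6 was 7.76-fold (7.29 to 8.28), Cytb 17.5-fold (16.5 to 18.6) and Atp8 17.9-fold (15.0 to 21.8) above it. Relative to uniquely aligned reads, 3 of the 6 were called higher, where 3.17% of genes were: Atp8 at 4.80-fold (4.01 to 5.84), Cytb at 4.70-fold (4.43 to 4.98) and Atp6 at 2.08-fold (1.95 to 2.22). Co3 was then 1.37-fold higher (1.32 to 1.43), Co2 1.08-fold lower (1.03 to 1.14) and Co1 1.41-fold lower (1.39 to 1.43).

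The make-up of the reads within the 6 genes does not depend on library scaling. Co1 held 79.8% of them in the healthy pool (interval 79.4 to 80.2) and 79.9% in the saline pool (79.3 to 80.6), but 59.4% in the etanercept pool (59.1 to 59.7). Cytb held 3.12% (2.95 to 3.29) in the healthy, 3.56% (3.28 to 3.86) in the saline and 15.4% (15.2 to 15.6) in the etanercept pool. The intervals of the Co1 share overlapped between the healthy and saline pools and lay far below both in the etanercept pool. Complex IV genes together held 93.6%, 92.9% and 76.6% of the reads in the healthy, saline and etanercept pools. The ATP synthase genes held 3.26%, 3.50% and 8.03%.

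**Figure D4:**
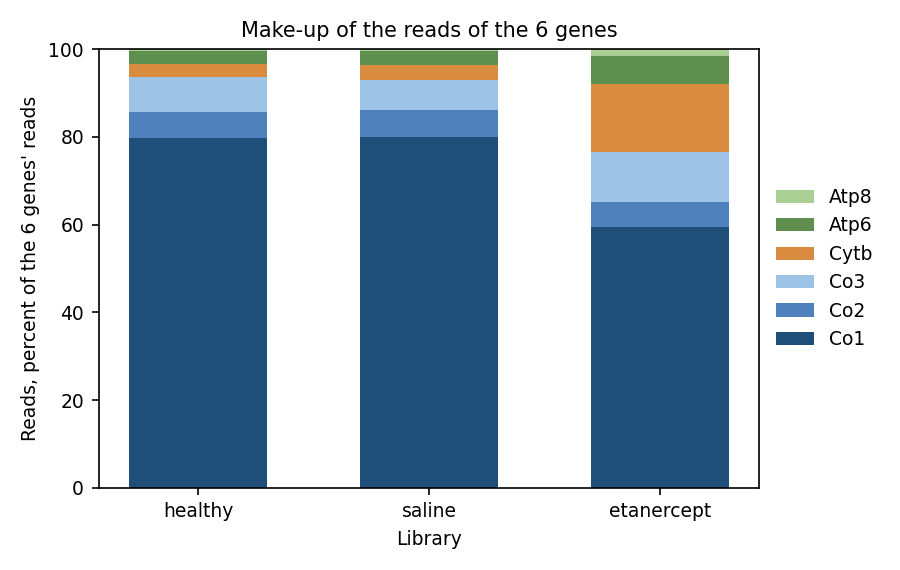
Stacked bars of the reads of each gene as a percent of the reads of the 6 genes, with 1 bar per pool. The healthy and saline bars are nearly alike; in the etanercept bar the Co1 part is 59.4% and the Cytb part 15.4%.

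Ratios of reads to those of Co1 were compared across the pools. There were 7.43 Co2 reads per 100 Co1 reads in the healthy pool (interval 7.12 to 7.75), 7.71 in the saline pool (7.22 to 8.22) and 9.71 in the etanercept pool (9.43 to 9.99). Co3 departed more, with 9.92, 8.55 and 19.2 reads per 100 Co1 reads in the healthy, saline and etanercept pools. Between the saline and etanercept pools the ratio to Co1 changed by a factor of 1.26 for Co2 (normal-approximation interval 1.17 to 1.35), 2.25 for Co3 (2.10 to 2.40) and 2.75 for Atp6 (2.50 to 3.02). The factor was 5.82 for Cytb (5.34 to 6.35) and 6.25 for Atp8 (4.77 to 8.19). Cytb reads per 100 Co1 reads numbered 3.91 in the healthy, 4.45 in the saline and 25.9 in the etanercept pool.

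Atp8 and Atp6 lie on 1 messenger RNA, and the ratio of their reads differed in the etanercept pool. There were 10.7 Atp8 reads per 100 Atp6 reads in the healthy pool (interval 8.84 to 12.9) and 10.9 in the saline pool (8.12 to 14.5), values that cannot be separated at this depth. In the etanercept pool there were 24.9 (23.4 to 26.4), 2.27 times the saline ratio (1.71 to 3.02). Reads that fell in more than 1 gene are tallied apart from the gene counts. Whether reads over the overlap of these reading frames went to that tally depends on the overlap mode of the counting, which is not given in the sources used here. The reads in that tally amounted to 0.919% of gene reads in the healthy, 1.12% in the saline and 8.09% in the etanercept pool, and their part in this ratio was not tested. Reads aligned to several places, as those shared with nuclear copies of mitochondrial sequence would be, are also left out of these counts. That tally held 23930072 entries in the healthy, 14151091 in the saline and 36628956 in the etanercept pool, or 3.17, 4.14 and 2.10 entries per uniquely aligned read. Its part was not tested.

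Other genes with a like pattern were sought among the 1359 further genes that averaged 100 CPM or more. Likeness was the distance between a gene's log2 folds, saline over healthy and etanercept over saline, and those of the summed members. The nearest was ENSRNOG00000004478, at a distance of 0.16, with 291 CPM in the healthy, 213 CPM in the saline and 1047 CPM in the etanercept pool. The second was ENSRNOG00000049952, at 0.18, with 91.6, 64.6 and 383 CPM in the healthy, saline and etanercept pools. This gene reached the average of 100 CPM only through the etanercept pool, so the search favoured genes high there. The likeness is to the sum, which rests mostly on Co1. For etanercept over saline the sum had a log2 fold of 2.40. Co3, Atp6, Cytb and Atp8 had larger ones, from 3.14 to 4.60, so the genes found are not like these members in size of fold. The likeness also rests on 3 pools, and no name was joined to these identifiers.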

How the data were processed

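RNA was measured in 3 libraries, 1 per group, each a pool of liver RNA of 3 rats. Per the labels' protocols, the steps were mirVana isolation of total RNA, RiboMinus depletion of ribosomal RNA and an Ion Total RNA-Seq library kit. The submitters' processing notes list TopHat2 2.0.13 beside HTSeq 0.6.1. Build, annotation, strand setting and overlap mode were not given in the sources used here, so reads antisense to a gene may be in its count. The authors deposited unnormalized read counts for Ensembl gene identifiers, followed by 5 summary rows without a gene, which were kept out of library sizes. Uniquely aligned reads are the sum of gene reads and the summary rows for no gene and for more than 1 gene. Gene reads were 79.4% (healthy), 77.5% (saline) and 20.9% (etanercept) of them.

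Counts were scaled by TMM (edgeR 4.0.16 in R 4.3.3). Folds of single genes are ratios of scaled counts, each with a pseudocount of 0.5 added first. Folds of the sum and ratios between genes were taken without a pseudocount. Intervals of folds were derived from exact Clopper-Pearson limits on the counts without a pseudocount (scipy 1.17.1). Folds and calls were computed over all 26404 identifiers, and the computation was tested on simulated data. The simulated libraries shared a common average profile apart from a set of changed genes. The simulation therefore did not check the scaling for pools as unlike as these. The floor of 5 CPM corresponds to 26.9 (healthy), 16.2 (saline) and 16.6 (etanercept) counts. All 6 members are named in every comparison, and the nearest identifiers by pattern are named beside them. Alternatives were total reads, DESeq2 1.42.0 size factors, the upper quartile, TMM without the members, another pseudocount, floor or fold, and shares of uniquely aligned reads. Folds on uniquely aligned reads and sums without Co1 or Cytb were added after seeing the data.

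The reference gene table (GRCr8) matched 0 identifiers and held 0 mitochondrial entries. Lists of pathway genes and cell type markers were therefore not scored, the liver label was not checked against markers, and no sequence, coordinate or length is given. The members and lists were chosen with earlier results of these data known.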

Additional observations from a re-analysis of the deposited data

Results flagged for a closer look

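With TMM scaling, 5 of the 6 genes differed from healthy in opposite directions in the saline and etanercept pools, and their counting intervals left out no difference in both. Atp8 did not meet this, since its saline over healthy interval included no difference. Etanercept over healthy log2 folds were 1.40 for Co1, 1.79 for Co2, 2.36 for Co3, 4.13 for Cytb and 2.96 for Atp6. The saline over healthy values were -0.57, -0.51, -0.78, -0.38 and -0.47 in the same order of genes. The opposition was not tested, since each group is 1 pool, and both comparisons use the healthy pool. How many of all genes met the same rule was not counted, so the pattern cannot be called particular to these genes. The count depended on the scaling: only Co1 and Co3, 2 of the 6, met it with total gene reads, and only Co3, 1 of the 6, with uniquely aligned reads. The sign for Cytb in saline changed with total gene reads (0.07), and those for Co1 and Co2 in etanercept changed with uniquely aligned reads (-0.50 and -0.11).

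Reads outside the gene counts were more frequent in the saline and etanercept pools than in the healthy pool. As a share of uniquely aligned reads, those in no gene came to 19.9% in the healthy pool, 21.7% in the saline pool and 77.4% in the etanercept pool. For reads in more than 1 gene the shares were 0.729%, 0.871% and 1.69%.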

How the results depend on the processing

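No paired analysis was possible because each group has 1 library, and for the same reason no library could be left out. The summed log2 folds were -0.57 (saline over healthy), 2.40 (etanercept over saline) and 1.83 (etanercept over healthy). They were -0.12, 1.97 and 1.85 with total gene reads and -0.53, 2.42 and 1.90 with DESeq2 size factors. With the upper quartile the etanercept values were 2.33 over saline and 1.76 over healthy. Relative to uniquely aligned reads the sums were -0.15 (saline over healthy), 0.082 (etanercept over saline) and -0.073 (etanercept over healthy), and 3 members were called in each etanercept comparison in place of 6. Co1 then reversed to -0.35 over saline and -0.50 over healthy, and Co2 to -0.015 and -0.11; this scale moves every etanercept over saline log2 fold by -2.32 and every etanercept over healthy one by -1.90. The shares of the 6 genes in uniquely aligned reads were 0.520%, 0.467% and 0.494% in the healthy, saline and etanercept pools. Without Co1 the summed etanercept values were 3.41 over saline and 2.83 over healthy, and without Cytb 2.21 and 1.63. At a fold of 1.5 instead of 2, 1 member, Co3, was called lower in saline. With total gene reads, DESeq2 size factors, the upper quartile, TMM without the members, a pseudocount of 1, a fold of 1.5, and floors of 1 CPM or none, all 6 members were called higher in both etanercept comparisons. The share of all genes called higher ranged over these settings from 10.8% (total gene reads, over saline) to 31.6% (fold of 1.5, over healthy). Depth limits Atp8 most, with 55 saline reads.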
